A study of Mus musculus with 6 samples.

Results

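Chemokines are small secreted proteins that attract leukocytes, and chemokine receptors are the membrane proteins through which cells sense them. Members of this gene family were taken by their symbols: a chemokine (Ccl, Cxcl, Cx3cl or Xcl) or a receptor (Ccr, Cxcr, Cx3cr, Xcr or Ackr) followed by its number, with the copies of *Ccl21*, *Ccl19* and their receptor *Ccr7* left out. Of the 18191 genes measured, 61 had such a symbol and 55 remained as members, of which 34 were ligands and 21 were receptors. One ligand, *Ccl19-ps1*, is annotated as a transcribed pseudogene. *Cxcl11*, *Ccl1* and *Ccr8* are not analysed here.

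RNA of the whole aorta of male mice was sequenced in 3 wild type (WT) libraries and 3 libraries of NPR1+/- mice, in which 1 copy of *Npr1* was disrupted by CRISPR-Cas9. *Npr1* encodes the receptor for atrial and brain natriuretic peptides. The age and strain of the mice are not given in the sources used here, and the libraries are labelled as separate samples of a genotype without naming the animals, so that p-values measure the spread between these samples. The comparison asked which genes of the aorta differ in expression when *Npr1* is reduced.

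In the vessel wall, chemokines displayed by the endothelium bring rolling monocytes, neutrophils and lymphocytes to firm adhesion, and resident macrophages, smooth muscle cells and fibroblasts also produce them. CXC ligands with an ELR motif act mainly on neutrophils through CXCR2, the interferon-induced CXC ligands act on T cells and NK cells through CXCR3, and many CC ligands act on monocytes and eosinophils. CXCL12 acts on CXCR4, and atypical receptors such as ACKR3 bind chemokines and remove them without the usual G protein signal.

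The promoters of 4 members are shown. These were the members with an unadjusted p under 0.05 in edgeR when libraries were paired by number, as described further on. Each sequence is the 250 bases before a start of the gene in RefSeq (GRCm38.p6), written 5′ to 3′ on the strand of the gene, which was the minus strand in each case. Capitals mark matches to an interferon-stimulated response element (ISRE, searched as GAAA and GAAA with any 2 bases between), a gamma-activated site (GAS, TTCNNNGAA), a TATA box (TATAAA) or an NF-kB site, searched on both strands. The NF-kB site was searched as GGG, A or G, any 2 bases, 2 bases that are each C or T, and CC. Stretches that differ from a pattern were not counted.
Cxcl10, chr5:92348890-92349139: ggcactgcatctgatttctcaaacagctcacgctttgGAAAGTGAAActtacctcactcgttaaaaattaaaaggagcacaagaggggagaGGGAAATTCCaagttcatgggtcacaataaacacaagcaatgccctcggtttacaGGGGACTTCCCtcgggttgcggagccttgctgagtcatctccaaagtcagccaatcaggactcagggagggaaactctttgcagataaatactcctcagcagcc
Cxcl9, chr5:92328080-92328329: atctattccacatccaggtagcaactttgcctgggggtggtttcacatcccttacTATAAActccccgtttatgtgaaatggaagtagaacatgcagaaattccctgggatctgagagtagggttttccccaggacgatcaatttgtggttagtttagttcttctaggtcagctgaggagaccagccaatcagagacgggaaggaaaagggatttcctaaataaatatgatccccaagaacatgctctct
Cxcl14, chr13:56296552-56296801: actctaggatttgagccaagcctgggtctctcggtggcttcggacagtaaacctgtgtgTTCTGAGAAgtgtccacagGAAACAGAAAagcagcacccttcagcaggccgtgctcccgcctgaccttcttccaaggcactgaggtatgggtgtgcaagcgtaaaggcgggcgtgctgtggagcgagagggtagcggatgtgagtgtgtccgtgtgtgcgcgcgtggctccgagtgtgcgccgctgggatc
Cxcr4, chr1:128592300-128592549: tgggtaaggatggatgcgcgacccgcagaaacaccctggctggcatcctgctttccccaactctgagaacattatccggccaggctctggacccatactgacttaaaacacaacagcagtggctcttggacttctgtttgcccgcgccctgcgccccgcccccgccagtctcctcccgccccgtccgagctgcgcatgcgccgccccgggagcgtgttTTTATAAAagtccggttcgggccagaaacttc

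The *Cxcl10* window held 1 ISRE match, from 213 to 204 bases before the start, and NF-kB matches from 159 to 150 and from 104 to 94 bases before it, the latter being overlapping matches merged into 1 stretch. The *Cxcl14* window held a GAS match (191 to 183 bases before the start) and an ISRE match (172 to 163 bases), and it lies inside the RefSeq span of the gene, which reaches to position 56296811 on chromosome 13. The windows of *Cxcl9* and *Cxcr4* held only TATA matches by these patterns. In *Cxcl9* the match lay from 195 to 190 bases before the start, and in *Cxcr4* 2 overlapping ones lay from 32 to 25 bases before it. Windows were given for 41 of the 55 members, 48 windows in all. An ISRE match was found in 2 of these 48 windows (4.17%), those of *Cxcl10* and *Cxcl14*, beside 2.98% of all 32851 windows. An NF-kB match was found in 10 member windows (20.8%, beside 7.25% of all windows), a GAS match in 4 (8.33%, beside 7.02%) and a TATA match in 15 (31.2%, beside 12.4%). A match describes the letters and not a bound site.

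**Figure D1:**
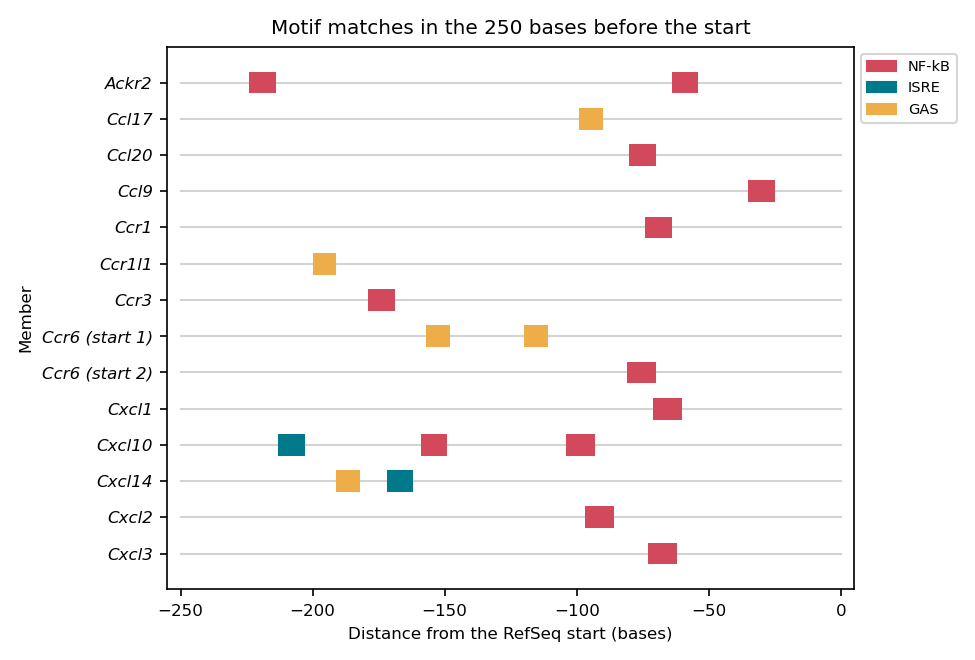
Matches to 3 motifs in the 250 bases before the RefSeq start, for the members with at least 1 match (x axis: distance from the start in bases; coloured boxes: NF-kB, ISRE and GAS; a member with matches at several starts has a line for each). *Cxcl10* held both an ISRE and NF-kB matches, and *Cxcl14* was the other member with an ISRE match.

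The libraries held between 13510970 and 16664343 estimated counts, so that 3 counts, taken as the smallest signal, corresponded to 0.185 to 0.219 CPM (counts scaled to the TMM-adjusted size of the library). *Npr1* stood at 453, 611.5 and 633.2 CPM in the WT libraries and at 295.5, 452.1 and 526.8 CPM in the NPR1+/- libraries. The means were 566 ± 98.3 and 425 ± 118 CPM (SD, n = 3), a ratio of 75.1%, and the groups overlapped. The log2 fold change of -0.41 (SE 0.27) did not pass edgeR's quasi-likelihood test (Benjamini-Hochberg adjusted p = 0.999), and the exact two-sided permutation p was 0.2, where 0.1 is the smallest that 3 against 3 allows. With the libraries paired by number, a pairing that the labels do not give, *Npr1* had an unadjusted p = 0.0221 and an adjusted p = 0.311 in edgeR. The libraries numbered 1 stood apart from the others along the first principal component, which held 59.3% of the variance. Their marker levels also differed: the summed CPM of 6 smooth muscle genes was 20220 in WT 1 and 12400 in NPR1+/- 1 but 32620 to 37010 elsewhere, and that of 6 adipocyte genes was 7486 and 10940 but 1301 to 3375 elsewhere. The summed CPM of 7 neuron genes was 409 in NPR1+/- 1 alone and 4.94 to 11.9 elsewhere, with 4 of the 7 at 0 in at least 1 library, and that of 5 Schwann cell genes was 389 in NPR1+/- 1 and 188 to 229 elsewhere. The part of these markers in the members that were highest in NPR1+/- 1 (*Cxcl10*, *Cxcl14*, *Cxcl9*, *Cxcr4*, *Ackr1* and *Ackr4* among them) was not tested. Smooth muscle markers, which the labelled tissue should hold, were abundant in each library.

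No member passed the test for a difference between the genotypes. Calls needed a Benjamini-Hochberg adjusted p below 0.05 together with a log2 fold change of 0.5 or more in either direction. By this rule 0 of the 34 members tested were called, as were 0 of 13938 genes (0.0%). At an unadjusted p under 0.05, 1 member, *Cxcl10*, was higher in NPR1+/- aortas (edgeR; 1.88% of all genes) and 0 were lower (1.08% of all genes). *Cxcl10* was also the only tested member whose groups did not overlap in CPM with NPR1+/- above WT (3.9% of all genes), and 0 members lay below (3.58%). DESeq2 called 15 of 18033 genes (0.0832%), or 268 of 18113 (1.48%) with the libraries paired by number, and none of the members either way. With pairing, DESeq2 gave no adjusted p to some members, *Cxcl10*, *Ccl17*, *Ccl22* and *Ccr4* among them. These members could not be called there. The authors reported far more differentially expressed genes at these thresholds with their DESeq2 test, and the reason for the difference was not tested. At an unadjusted p under 0.05, 2 members passed in edgeR without the filter on low counts (3.1% of genes), *Cxcl10* and *Ccl22*. In DESeq2 2 passed (3.24%), *Cxcl10* and *Cxcl14*, and with pairing 1 passed (7.2%), *Cxcl14*. In limma on FPKM 3 passed (2.82%), *Cxcl10*, *Ccl22* and *Ccl17*. *Ccl22* and *Ccl17* had only 18 and 7 counts over all libraries. The tested members had a median log2 fold change of 0.16, beside 0.01 over all genes, with 20 above 0 and 14 below (51.6% of all genes were above 0). Without the library NPR1+/- 1 the median of the members was -0.05.

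The labels do not pair the libraries. In the deviations from the genotype means, WT 3 correlated more with NPR1+/- 2 (0.44) than with NPR1+/- 3 (0.24). Pairing the libraries by number raised the count at an unadjusted p under 0.05 in edgeR to 4 members higher (7.36% of all genes) and 0 lower (5.09%). These were *Cxcl10*, *Cxcr4*, *Cxcl14* and *Cxcl9*, and the lowest adjusted p among the members was 0.269 in edgeR with the block. In DESeq2 with the block, the unadjusted p was 0.0264 for *Cxcl14*, 0.0539 for *Cxcr4*, 0.0878 for *Cxcl10* and 0.107 for *Cxcl9*. In every same-numbered pair 10 members were higher in the NPR1+/- library, 29.4% of those tested beside 17.5% of all genes. In every such pair 0 were lower (16.9%). The 10 were *Cxcl10*, *Cxcl14*, *Cxcl5*, *Cxcl9*, *Ccl5*, *Ccl11*, *Ccl25*, *Cxcr4*, *Ccr1* and *Ackr1*.

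**Figure D2:**
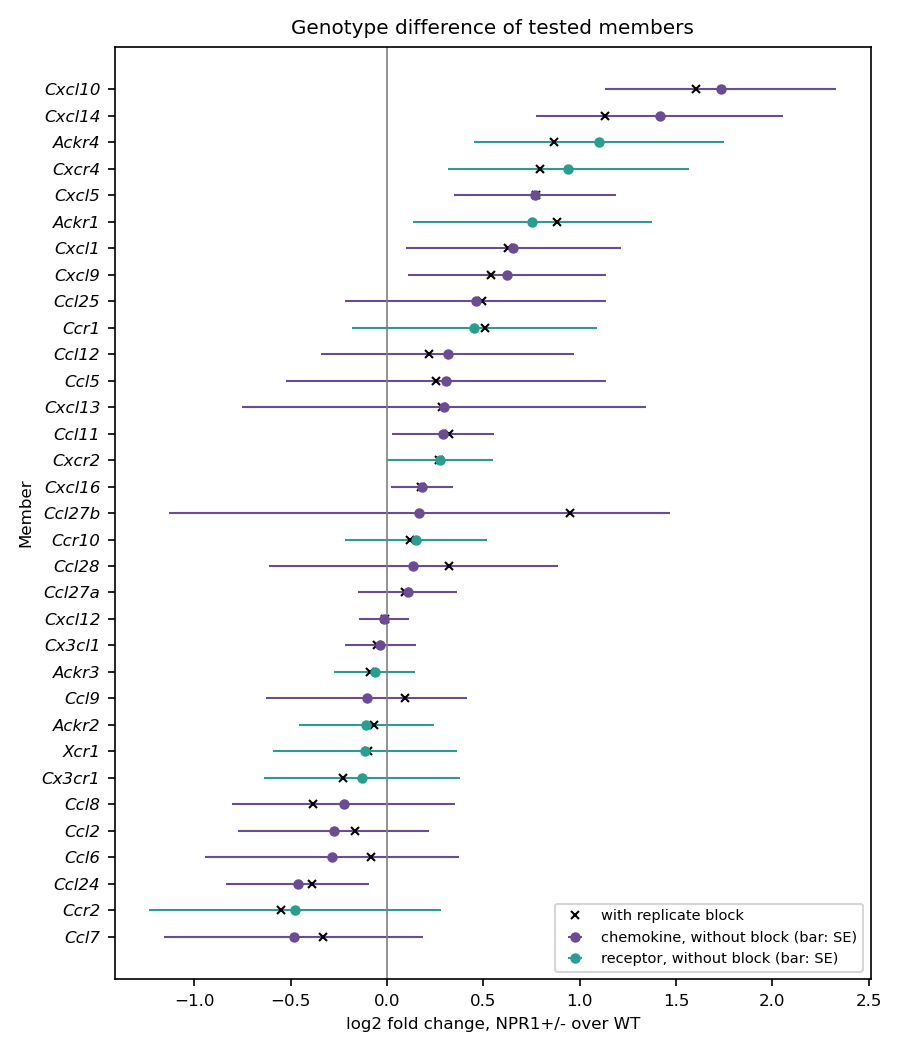
Log2 fold change of NPR1+/- over WT for 33 of the members tested (x axis; points: fit without pairing, bars: SE; crosses: fit with the replicate block), ordered by size. *Cxcl10*, *Cxcl14* and *Ackr4* lie at 1 or above, and the values run from -0.48 to 1.73.

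The interferon-induced CXC ligands had the largest median log2 fold change of the ligand classes, 1.18 with 2 members tested. *Cxcl10* (chr5:92346638-92348889), a ligand of CXCR3, had 7, 6 and 5 counts in the WT libraries and 34, 12 and 13 in the NPR1+/- libraries. In CPM these were 0.511, 0.370 and 0.309 against 2.42, 0.759 and 0.826. Every NPR1+/- library was above every WT library, and NPR1+/- 1 was the highest. The log2 fold change was 1.73 (SE 0.60, unadjusted p = 0.0244 and adjusted p = 0.999 in edgeR), and it was 0.98 without NPR1+/- 1. With the block it was 1.60 (unadjusted p = 0.0144, adjusted p = 0.269, edgeR). Leaving out WT 2 or NPR1+/- 1 left 0 members at an unadjusted p under 0.05 in the fit without the block.

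*Cxcl10* overlaps *Art3* in the annotation. *Art3* stood at 55.4, 59.1 and 77.7 CPM in WT and 109, 77.5 and 59.9 CPM in NPR1+/- libraries, and whether the counting used strand is not given in the sources used here. *Cxcl9* (chr5:92321331-92328079), the neighbouring CXCR3 ligand, stood at 9.92, 4.57 and 5.07 CPM in WT and at 17.5, 7.02 and 5.59 CPM in NPR1+/- libraries. The groups overlapped, since WT 1 lay above NPR1+/- 2 and 3. Its log2 fold change of 0.62 (SE 0.52) had an unadjusted p = 0.268, and with the block it was 0.54 (unadjusted p = 0.0363 in edgeR, adjusted p = 0.359). It was -0.06 without NPR1+/- 1. *Cxcr3*, the receptor of both ligands on T cells and NK cells, had 12, 1 and 3 counts in WT and 13, 2 and 2 counts in NPR1+/- libraries and was too low to be tested. The summed level of 9 T cell and NK cell markers was likewise 4.45 CPM in WT 1 and 8.69 CPM in NPR1+/- 1 but 1.79 to 2.99 CPM elsewhere, with none high enough to be tested and 3 of the 9 at 0 in at least 1 library. The part of such cells in the *Cxcl9* and *Cxcl10* levels was not tested. In bulk RNA, more cells of a type and more RNA per cell cannot be told apart.

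**Figure D3:**
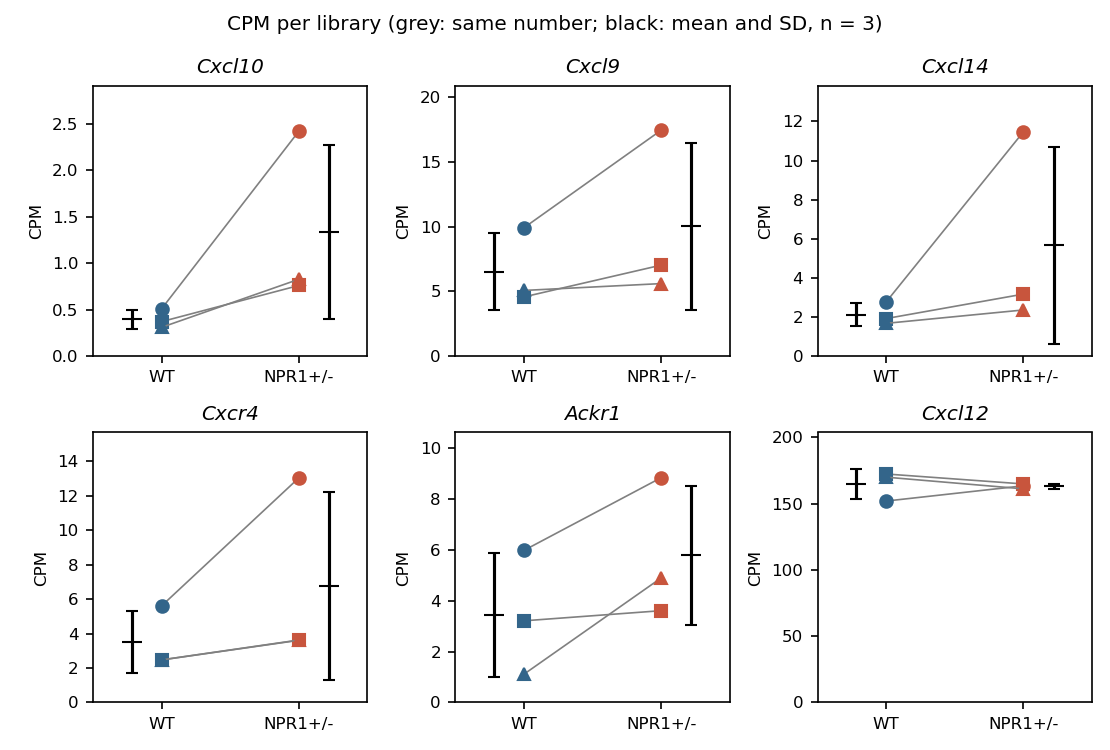
CPM of 6 members in each library (y axis; circle, square and triangle: libraries numbered 1, 2 and 3; grey lines join libraries of the same number; black: mean and SD, n = 3). In every pair the NPR1+/- value is the higher for *Cxcl10*, *Cxcl9*, *Cxcl14*, *Cxcr4* and *Ackr1*, with the highest value in NPR1+/- 1 for each, whereas *Cxcl12* stays between 152 and 172 CPM.

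Among the other CXC ligands, *Cxcl12* had the highest length-scaled level of the 34 member ligands, which do not include *Pf4*, *Ppbp* or the chemokines left out by the rule. *Cxcl12* (chr6:117168535-117181368), which retains progenitors and lymphocytes through CXCR4, stood at 67.5, 85.8 and 80.5 FPKM (fragments scaled by transcript length and library size) in WT and 63.1, 77.2 and 78.9 FPKM in NPR1+/- libraries. The means were 77.9 ± 9.43 and 73.1 ± 8.70 FPKM (SD, n = 3). Its log2 fold change was -0.01 (SE 0.13, edgeR unadjusted p = 0.916). It took 35.8% of the summed FPKM of the member ligands in WT, and the first 5 ligands took 79.5%.

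*Cxcl14* (chr13:56288643-56296811), a homeostatic chemokine of epithelia and stroma, stood at 2.77, 1.91 and 1.67 CPM in WT and 11.5, 3.16 and 2.35 CPM in NPR1+/- libraries. NPR1+/- 1 was far above the rest, and WT 1 overlapped NPR1+/- 3. For *Cxcl14* the log2 fold change was 1.42 (SE 0.64, unadjusted p = 0.0650 in edgeR) and 1.13 with the block (unadjusted p = 0.0181, adjusted p = 0.290). It was 0.37 without NPR1+/- 1. *Cxcl16* (chr11:70454389-70459984), a membrane-anchored ligand of CXCR6 and a scavenger receptor, stood at 6.99, 6.39 and 6.21 FPKM in WT and 7.81, 7.88 and 8.71 FPKM in NPR1+/- libraries. Its FPKM did not overlap, but its CPM did (15.8, 13.9 and 13.3 against 13.8, 17.3 and 17.5), with a log2 fold change of 0.18 (SE 0.16, edgeR unadjusted p = 0.303). *Cxcl16* overlaps *Zmynd15* in the annotation. *Cxcl13*, the B cell attractant, ranged from 0.309 CPM in WT 3 to 7.70 CPM in NPR1+/- 1 and was high in both libraries numbered 1.

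The ELR ligands, which act on neutrophils, were low. *Cxcl1* had 5 to 13 counts in WT and 7 to 18 in NPR1+/- libraries, with a log2 fold change of 0.66 (SE 0.56). *Cxcl5* stood at 0.330, 0.240 and 0.400 FPKM in WT and 0.400, 0.660 and 0.590 FPKM in NPR1+/- libraries, with a log2 fold change of 0.77 (SE 0.42, edgeR unadjusted p = 0.113). *Cxcl2*, *Cxcl3* and *Cxcl15* had at most 5.72 estimated counts in a library and were not tested.

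Of 9 inflammatory CC ligands tested, 3 had a log2 fold change above 0 and 6 below, with a median of -0.22, and none had an unadjusted p under 0.05. *Ccl6* (chr11:83587886-83593087) and *Ccl9* (chr11:83572917-83578636), neighbouring genes of macrophages and other myeloid cells, were the most variable abundant ligands. *Ccl6* stood at 74.6, 27.3 and 12.6 FPKM in WT and 49.4, 21.0 and 21.3 FPKM in NPR1+/- libraries. *Ccl9* stood at 24.8, 11.0 and 5.30 FPKM in WT and 16.5, 10.1 and 10.9 FPKM in NPR1+/- libraries. Both were highest in WT 1, then in NPR1+/- 1, and lowest in WT 3, so that the spread within a genotype exceeded the difference between them (log2 fold changes -0.29 with SE 0.66 and -0.11 with SE 0.52). The summed level of 11 macrophage markers ran the same way, at 748, 468 and 304 CPM in WT and 525, 361 and 367 CPM in NPR1+/- libraries. None of the 11 was at 0 in a library, 11 of 11 had a log2 fold change below 0 with a median of -0.24, and their part in the levels of *Ccl6* and *Ccl9* was not tested.

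*Ccl11* (chr11:82057832-82062955), eotaxin, which attracts eosinophils through CCR3, stood at 20.6, 13.2 and 10.8 FPKM in WT and 21.0, 16.2 and 16.5 FPKM in NPR1+/- libraries. It was higher in the NPR1+/- library of each same-numbered pair. The log2 fold change was 0.32 with the block (edgeR unadjusted p = 0.0640) and 0.29 without (unadjusted p = 0.313). *Ccl8* (chr11:82115185-82116799), another inflammatory CC ligand, stood at 10.6, 5.49 and 5.60 FPKM in WT and 11.0, 2.60 and 4.60 FPKM in NPR1+/- libraries, with overlapping groups. *Ccl2* and *Ccl7*, the main ligands of CCR2 for monocytes, were highest in WT 2 at 3.46 and 2.84 CPM. *Ccl7* had the lowest log2 fold change of the members, -0.48 (SE 0.67), and *Ccl24*, a further eotaxin, had -0.46 (SE 0.37). *Ccl5*, released by T cells, was 1.68 CPM in WT 1 and 2.21 CPM in NPR1+/- 1, against 0.308 to 0.699 CPM in the other libraries. *Ccl3* and *Ccl4*, the classical macrophage inflammatory proteins, had at most 6 counts in a library. They overlap each other in the annotation.

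The other CC ligands are mostly homeostatic. *Ccl27a* (chr4:41769467-41774225), a ligand of CCR10 best known in skin, stood at 36.1, 26.0 and 23.1 FPKM in WT and 21.8, 31.7 and 41.9 FPKM in NPR1+/- libraries. Its near-identical copy *Ccl27b* had 0.09, 7.12 and 84.66 estimated counts in WT and 28.96, 12.25 and 56.79 in NPR1+/- libraries, so the split between the copies is uncertain. Both also overlap interleukin 11 receptor genes, *Il11ra1* and *Il11ra2*. Summed over both copies, CPM was 19.4 ± 2.72 in WT and 21.0 ± 6.29 in NPR1+/- aortas (SD, n = 3). *Ccl25* and *Ccl28* had log2 fold changes of 0.46 (SE 0.68) and 0.14 (SE 0.75).

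The remaining abundant ligand was *Cx3cl1* (chr8:94772180-94782427), fractalkine, which is made by endothelium and binds CX3CR1 on monocytes. It stood at 7.64, 8.90 and 8.40 FPKM in WT and 6.47, 10.01 and 7.72 FPKM in NPR1+/- libraries. The groups overlapped, with a log2 fold change of -0.03 (SE 0.18, edgeR unadjusted p = 0.858). *Xcl1* had 6 counts in NPR1+/- 1 and 0 in every other library.

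**Figure D4:**
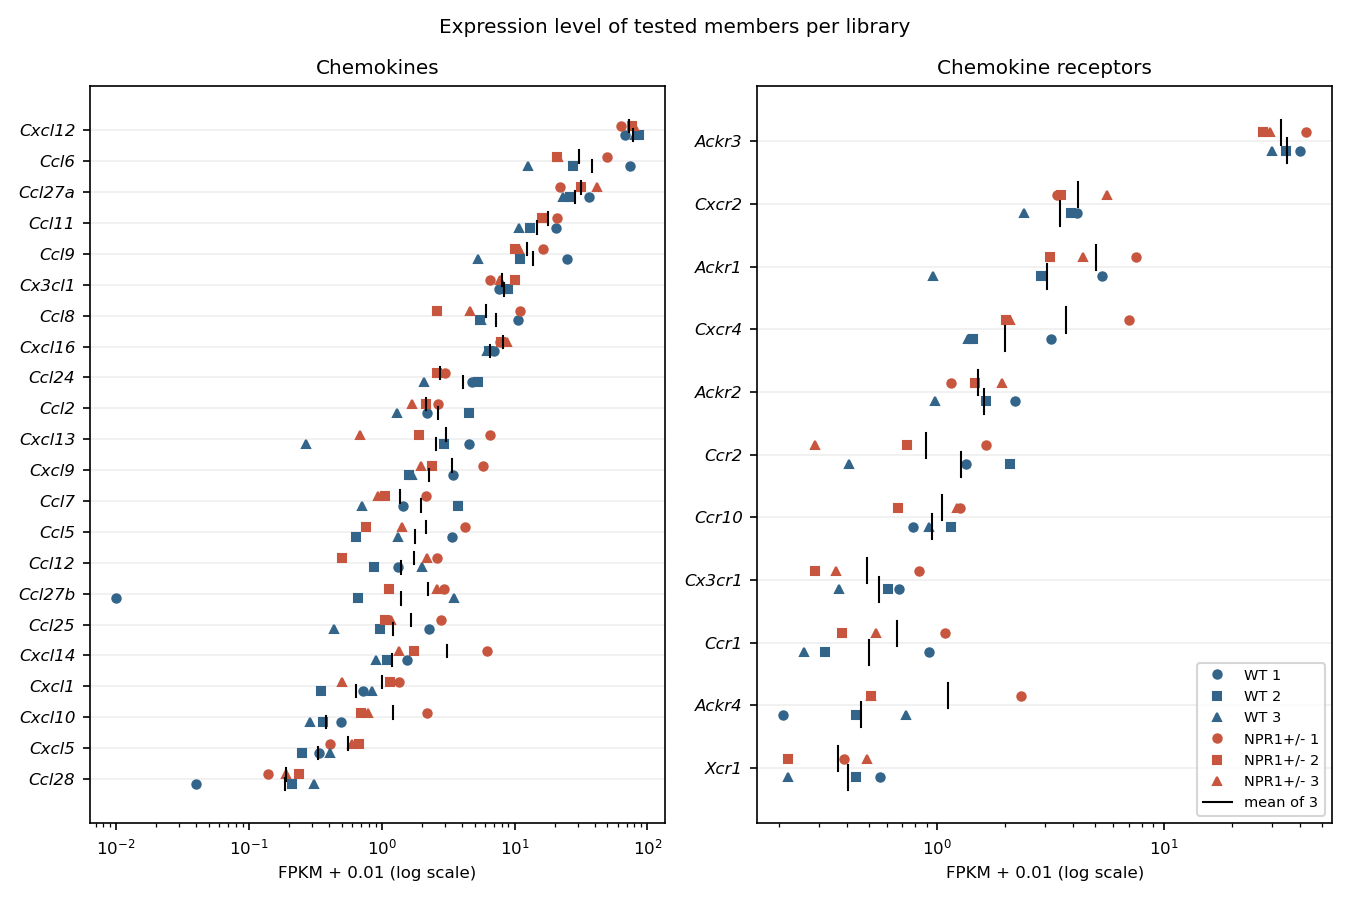
FPKM (plus 0.01, log axis) of 33 of the members tested in each library, with ligands on the left and receptors on the right, ordered by the WT mean (blue: WT; red: NPR1+/-; circle, square and triangle: libraries numbered 1, 2 and 3; black lines: means of 3). *Cxcl12* and *Ackr3* top their panels, and the genotypes overlap for most members.

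Among receptors, *Ackr3* held 69.2% of the summed FPKM in WT, and the first 5 receptors held 89.3%. Only 6 of the 21 receptors had a WT mean of at least 1 FPKM, beside 18 of the 34 ligands. *Ackr3* (chr1:90203980-90215724), the atypical receptor that scavenges CXCL12, stood at 40.1, 34.6 and 30.2 FPKM in WT and 42.4, 27.4 and 29.4 FPKM in NPR1+/- libraries. Its log2 fold change was -0.06 (SE 0.21, edgeR unadjusted p = 0.775).

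*Ackr1* (chr1:173331886-173333503), the Duffy antigen receptor of venular endothelium and red cells, stood at 5.98, 3.21 and 1.11 CPM in WT and 8.84, 3.61 and 4.89 CPM in NPR1+/- libraries. The values overlapped, and each NPR1+/- library was above the WT library of its number. The log2 fold change was 0.76 (SE 0.62, edgeR unadjusted p = 0.263) and 0.88 with the block (unadjusted p = 0.0549). *Ackr1* overlaps *Cadm3*, which stood at 16.7, 14.4 and 9.51 CPM in WT and 38.0, 14.9 and 17.9 CPM in NPR1+/- libraries. The summed level of 7 endothelial markers was 714, 467 and 823 CPM in WT and 1358, 925 and 873 CPM in NPR1+/- libraries, with all 7 log2 fold changes above 0, and that of 6 erythroid markers was 7553 and 6286 CPM in the libraries numbered 1 but 631 to 1313 CPM elsewhere. Their part in the *Ackr1* level was not tested.

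*Ackr4* (chr9:104097682-104126643), which scavenges homeostatic CC chemokines, stood at 0.875, 1.17 and 1.98 CPM in WT and 5.70, 1.77 and 1.27 CPM in NPR1+/- libraries. The log2 fold change of 1.10 (SE 0.65, edgeR unadjusted p = 0.135) rested on NPR1+/- 1, since it was 0.17 without that library. The gene overlaps *Acad11*, which stood at 134 CPM in WT 1 and 142 CPM in NPR1+/- 1 but 25.1 to 40.3 CPM elsewhere. *Ackr2* (chr9:121898355-121911075), the scavenger of inflammatory CC chemokines, stood at 2.20, 1.63 and 0.970 FPKM in WT and 1.14, 1.46 and 1.92 FPKM in NPR1+/- libraries, with overlapping groups.

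*Cxcr4* (chr1:128588199-128592299), the signalling receptor of CXCL12, stood at 5.62, 2.47 and 2.47 CPM in WT and 13.04, 3.61 and 3.62 CPM in NPR1+/- libraries. Each NPR1+/- library was above the WT library of its number, but WT 1 was above NPR1+/- 2 and 3. The log2 fold change was 0.94 (SE 0.63, edgeR unadjusted p = 0.177) and 0.79 with the block (unadjusted p = 0.0171, adjusted p = 0.286), and it was 0.02 without NPR1+/- 1. *Cxcr2* (chr1:74153994-74161246), the neutrophil receptor of the ELR ligands, stood at 4.13, 3.90 and 2.42 FPKM in WT and 3.39, 3.53 and 5.62 FPKM in NPR1+/- libraries. It was the second receptor by WT level, and NPR1+/- 3 was highest. The summed level of 7 monocyte and neutrophil markers was, by contrast, highest in the libraries numbered 1, at 35.7 and 23.7 CPM against 6.42 to 11.8 CPM, and 5 of the 7 were at 0 in at least 1 library.

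The CC receptors were low. *Ccr2* (chr9:124101918-124109140), the receptor of inflammatory monocytes, stood at 1.33, 2.08 and 0.400 FPKM in WT and 1.64, 0.730 and 0.280 FPKM in NPR1+/- libraries, with a log2 fold change of -0.48 (SE 0.76). *Ccr10* (chr11:101172998-101175443), the receptor of CCL27, stood at 0.770, 1.14 and 0.910 FPKM in WT and 1.25, 0.660 and 1.22 FPKM in NPR1+/- libraries. The genotypes overlapped for both. *Ccr1*, *Cx3cr1* and *Xcr1* had log2 fold changes of 0.45, -0.13 and -0.12, each smaller than its SE.

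The position of the highest library was shared by many members. Of the 34 tested, 22 were highest in a library numbered 1 (64.7%, beside 42.1% of all genes), 17 of them in NPR1+/- 1 (50.0%, beside 28.9%). The lowest library was WT 3 for 17 members (50.0%, beside 16.6%). In all, 8 members were at least 2-fold above the mean of the other libraries in both libraries numbered 1 (23.5%, beside 6.18%), namely *Cxcl9*, *Cxcl13*, *Ccl5*, *Ccl6*, *Ccl25*, *Cxcr4*, *Ackr1* and *Ccr1*.

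**Figure D5:**
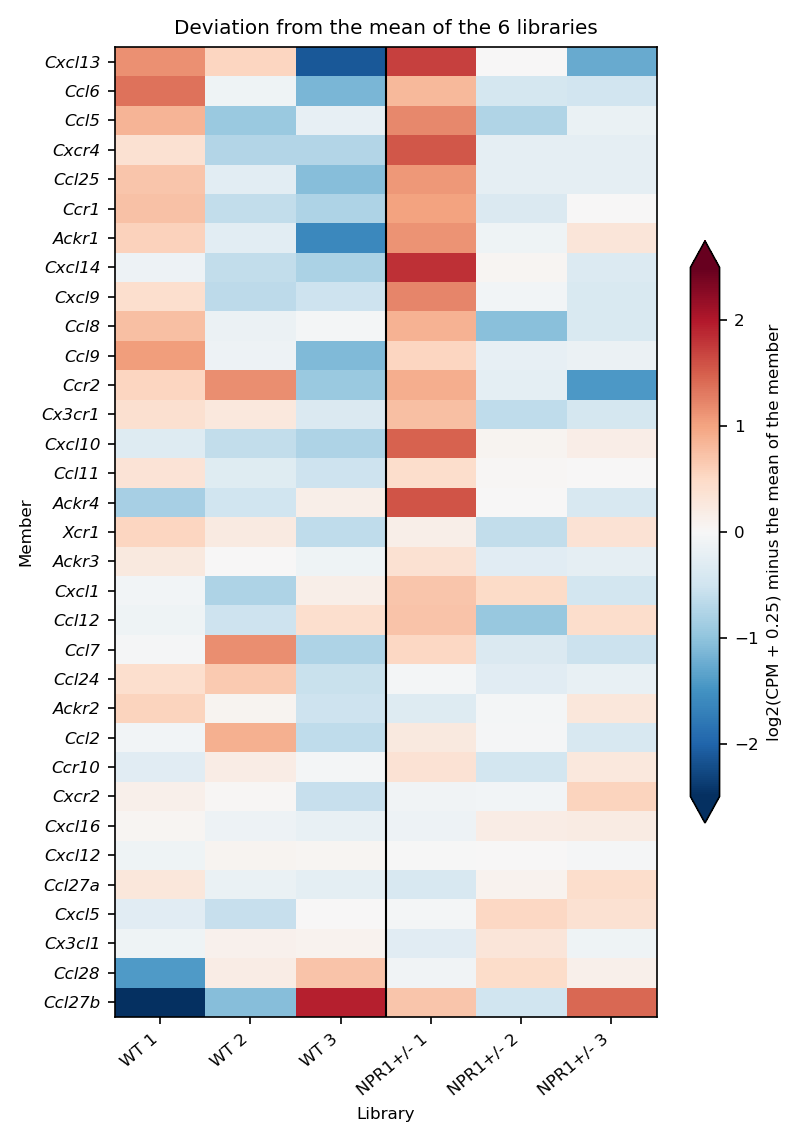
Deviation of 33 tested members from their means over the 6 libraries (colour: log2(CPM + 0.25) minus the mean, limited to 2.5 on either side; columns: libraries; rows: members, ordered by how far the libraries numbered 1 lie above the others). Most of the top rows are red in WT 1 and NPR1+/- 1, and many members are lowest in WT 3.

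Without both libraries numbered 1, which leaves 2 against 2, an alternative chosen after the data were seen, 3 members had an unadjusted p under 0.05 in edgeR (6.43% of all genes), all higher in NPR1+/- aortas: *Ccl27a*, *Ccl11* and *Cxcl16*. The groups then did not overlap for 11 members above and 4 below (22.8% and 21.8% of all genes).

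The 21 members not tested lay under the filter on low counts. Of them, 15 were at 0 in at least 1 library, and 8 had under 3 counts in every library. *Ccl22*, a ligand of CCR4 made by dendritic cells and macrophages, had 1 count in each WT library and 4, 8 and 3 counts in the NPR1+/- libraries. Of 5 dendritic cell markers 4 were tested, with 4 log2 fold changes above 0 and 0 below (median 0.55). The untested one, *Itgae*, stood at 1.60, 0.370 and 0.432 CPM in WT and 1.57, 0.380 and 0.254 CPM in NPR1+/- libraries. The macrophage markers above had a median of -0.24. The part of either cell type in the *Ccl22* counts was not tested. *Ccr4*, a receptor of Th2 and regulatory T cells, had 2.32, 6.91 and 2.04 estimated counts in WT and 7.55, 7.71 and 11.59 in NPR1+/- libraries. *Ccl17*, the other CCR4 ligand, had 0, 2 and 0 counts in WT and 1, 3 and 1 in NPR1+/- libraries. *Cxcl3* had 0 counts in each WT library and in NPR1+/- 1, and 1 count in each of the other NPR1+/- libraries. Without the filter, 3 members lay with NPR1+/- above WT without overlap (3.84% of genes), namely *Cxcl10*, *Ccl22* and *Ccr4*. *Ccl22* then had an unadjusted p = 0.0306 and an adjusted p = 0.992 in edgeR. *Ccl22* lay under 3 counts in every WT library and *Ccr4* in 2 of the 3, and no fold change is given for them. *Ccl19-ps1* had 75.02 counts in NPR1+/- 3 and 0 in all other libraries, and it is a near copy of *Ccl19*, so its counts may belong to another copy.

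The other genes of the pathway were measured in lists chosen with earlier results of these data known. Of 38 genes for partners and signalling of chemokine receptors, 38 were tested, 0 were called, 25 had a log2 fold change above 0 and 13 below, and the median was 0.05. *Plcb2*, the leukocyte phospholipase C activated by these receptors, was the only one with an unadjusted p under 0.05 (1.88% of all genes were higher at this p). It stood at 0.583, 0.370 and 0.124 CPM in WT and 1.64, 1.20 and 0.636 CPM in NPR1+/- libraries. Its log2 fold change was 1.69 (SE 0.62, edgeR unadjusted p = 0.0318). The value in WT 3 lay under the level of 3 counts (0.185 CPM), so this fold change is limited by few counts. With the block, 4 of them were higher and 1 was lower at an unadjusted p under 0.05 (7.36% and 5.09% of all genes). Of 27 interferon response genes tested, 24 had a log2 fold change above 0 and 3 below, 0 had an unadjusted p under 0.05, and the median was 0.28. With the block, 4 of them were higher and 1 was lower at an unadjusted p under 0.05, beside the same 7.36% and 5.09% of all genes. Their summed CPM was 488, 328 and 283 in WT and 580, 341 and 354 in NPR1+/- libraries, again highest in the libraries numbered 1. Of 19 NF-kB response genes tested, 11 had a log2 fold change above 0 and 8 below, and the median was 0.17. Of them, 3 lay above WT without overlap and 1, *Relb*, below (3.9% and 3.58% of all genes). With the block, 4 were higher at an unadjusted p under 0.05 in edgeR (7.36%) and 0 were lower (5.09%). Without the block, 3 had an unadjusted p under 0.05 in edgeR, all higher in NPR1+/- aortas (1.88% of all genes). The 3 were *Icam1*, the endothelial adhesion molecule (log2 fold change 0.62, unadjusted p = 0.0132), *Traf1* (0.67, unadjusted p = 0.0469) and *Tnfaip2* (0.46, unadjusted p = 0.0483). The 7 endothelial markers, with log2 fold changes above 0 for 7 of 7, included 3 at an unadjusted p under 0.05, and their part in the *Icam1* level was not tested. None of the genes in the pathway lists was called.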

How the data were processed

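Reads of the 6 libraries were filtered with SOAPnuke, mapped with Bowtie2 against reference coding genes and quantified with RSEM by the authors, who tested them with DESeq2 1.4.5; the submitters' notes name mm10. The authors deposited RSEM's estimated counts (not normalized) and FPKM (scaled by transcript length and library size) for 18191 genes; 18070 were paired with a symbol. The authors' mean columns were not used. Columns named Knockdown were taken as NPR1+/- from the labels.

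Estimated counts were rounded and compared with edgeR 4.0.16 in R 4.3.3 (TMM, minimum count of 10, quasi-likelihood test, Benjamini-Hochberg adjustment over 13938 genes). CPM used the TMM-scaled library size. Alternatives were the replicate number as a block, DESeq2 1.42.0 and its size factors, no filter, limma 3.58.1 on log2(FPKM + 0.1) and leaving out each library. Tests were run on simulated counts, drawn independently for each library without a shared deviation of the libraries numbered 1. The simulation could not show how the tests behave with such a deviation, and its outcome is not given here. Same-numbered libraries deviated together (correlations 0.64, 0.39 and 0.24), and numbers were treated as pairs because each exceeded 0.1. Libraries of different numbers deviated together as well (WT 3 with NPR1+/- 2 at 0.44, WT 2 with NPR1+/- 3 at 0.37), so that only the libraries numbered 1 were set apart by their number, and the labels give no other basis. Depth limits precision for members with few counts.

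Genes named were the 8 ligands and 8 receptors with the highest WT FPKM, members at an unadjusted p under 0.05 with or without the block, members without overlap or at a log2 fold change of 1 or more in size, their near copies, *Npr1*, and list genes at an unadjusted p under 0.05; others were added as examples after their values were seen. Members and lists were chosen with earlier results of these data known. Coordinates and promoters are of RefSeq GRCm38.p6. The values of 1 tested member are not reported here, though it is counted in the totals.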

Additional observations from a re-analysis of the deposited data

How the results depend on the processing

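No member was called under any alternative, and the replicate block changed no call beyond the count given with it. Some members, *Cxcl10* among them, had no adjusted p in DESeq2 with the block and could not be called there. The count of members at an unadjusted p under 0.05, 1 in the fit as reported, was 4 with the replicate block, 2 without a filter, 2 with DESeq2, 3 with limma on FPKM, 3 without both libraries numbered 1, and 0 to 2 leaving out 1 library. The count without overlap was also 1 in the fit as reported (3.9% of all genes lay above and 3.58% below). It was 3 without a filter, all above (3.84% of genes), and 15 without both libraries numbered 1 (22.8% above and 21.8% below). It was 3 with DESeq2, 5 with limma, and 1 to 9 leaving out 1 library (9 without WT 1, 6 without NPR1+/- 1). The share of all genes without overlap was not computed for DESeq2, limma or leaving out 1 library. With fewer libraries, groups more easily fail to overlap, so these counts are no result about the members. The median log2 fold change of the members ran from -0.05 to 0.35 leaving out 1 library.

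Of 273 log2 fold changes of named genes under alternatives, 33 reversed. *Ccl9* was 0.093 with the block, 0.11 with DESeq2 and the block, 0.10 with limma and 0.36 without both libraries numbered 1. Without both libraries numbered 1, *Ackr2* was 0.34, *Ackr4* -0.049, *Ccl27b* -0.37, *Ccl6* 0.081, *Ccr10* -0.15 and *Cx3cl1* 0.024. Leaving out 1 library at a time gave -0.37 to 0.20 for *Ackr2*, -0.32 to 0.050 for *Ackr3*, -0.12 to 0.28 for *Ccl27a*, -0.45 to 3.19 for *Ccl27b*, -0.88 to 0.64 for *Ccl6*, -1.03 to 0.14 for *Ccl8*, -0.50 to 0.63 for *Ccl9*, -0.041 to 0.39 for *Ccr10*, -1.32 to 0.065 for *Ccr2*, -0.23 to 0.074 for *Cx3cl1*, -0.071 to 0.017 for *Cxcl12* and -0.063 to 1.05 for *Cxcl9*. The cause of these reversals was not tested. Members with few counts, such as *Cxcl10* and *Ccl22*, are limited by depth, and intervals beyond the SE were not computed.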
